A study of Mus musculus with 142 samples.

Results

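Replication-dependent histone genes encode the H1, H2a, H2b, H3 and H4 proteins that package newly made DNA. They were taken as the protein-coding genes whose symbol begins with Hist1h, Hist2h, Hist3h or Hist4h. There were 67 of them among 47516 genes with a count, namely 6 H1, 18 H2a, 18 H2b, 12 H3 and 13 H4 genes. Of the 67 genes, 62 had a count in every library and 65 passed the filter on low counts and were tested. Hist1h2aa, with a count in 49 libraries, and Hist1h2ba, with a count in 39, were not tested. The 4 clusters that hold them in GRCm38 are 54 genes of the Hist1 cluster on chromosome 13 (21715763 to 23934851), 10 of Hist2 on chromosome 3 (96219865 to 96270132), 2 of Hist3 on chromosome 11 (58948920 to 58956830) and 1 of Hist4 on chromosome 6 (136801553 to 136804415).

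The genes were measured in total-RNA libraries of primary mouse oligodendrocyte precursor cells (OPCs), the dividing cells that become myelinating oligodendrocytes. OPCs came from brainstem or dorsal telencephalon of pups aged P5 to P7 on the FVB background and were purified by panning on an antibody against PDGFRa. K27M cells carried a conditional H3.3 K27M allele at H3f3a, switched on by Cre under a human GFAP promoter, and Control cells came from littermates. Per the study's methods littermate controls lack Cre and transcribe H3f3a from a single allele, since the stop cassette stays in the other. Day 0 is proliferation medium with PDGF, neurotrophin-3, CNTF and forskolin, and days 1, 2 and 5 are days in differentiation medium with thyroid hormone, CNTF and forskolin. The 16 groups of region, genotype and day held 9 libraries each, or 8 in brainstem Control day 1 and brainstem K27M day 2. Each region and genotype came as 3 culture lines (38, 41 and 42), each grown from pooled pups, with about 3 wells per day, so wells of a line are not separate animals and p-values over wells are too small for a statement on animals. Counts from wells summed by line, where n is 3 lines, are therefore given as well for day 0 against day 5, for genotype and for region, while the steps between neighbouring days were tested on wells only. Passage ran from 1 to 8 and often differed between Control and K27M of a culture number. In brainstem culture 41 it was 4 or 5 in Control and 1 or 2 in K27M. In telencephalon culture 38 it was 2 or 3 in Control and 3 or 4 in K27M. Genotype and passage can therefore not be fully told apart.

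These genes are transcribed in clusters, mostly while DNA is copied in S phase. Their mRNAs as a rule carry no poly(A) tail and end just after a short stem-loop, which the stem-loop binding protein Slbp holds. A library made from total RNA keeps such mRNAs, whereas poly(A) selection loses them. Variant histones such as H3.3, made from H3f3a and H3f3b, are transcribed outside S phase as well and have ordinary poly(A) tails. In cells that stop dividing, the need for new histones falls.

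The stem-loop was found in 46 annotated transcripts of 44 genes, each time in an exon of the 3′ UTR and 24 to 61 bases (median 34) after the last coding base. The forms are shown because the annotated end of the mRNA relative to this element is used further on. Capitals mark the 16-base stem-loop, 5 bases are shown on either side where the transcript has them, and sequences are from the GRCm38 transcripts. The first form was shared by 26 genes and is shown from Hist1h2ap, chr13:21833029-21833044, minus strand. The second was found in 7 H4 genes and is shown from Hist1h4h, chr13:23531458-23531473, plus strand. The third was found in 6 genes and is shown from Hist1h2bk, chr13:22036300-22036315, plus strand.
Hist1h2ap: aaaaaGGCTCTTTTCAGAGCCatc
Hist1h4h: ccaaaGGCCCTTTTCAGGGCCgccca
Hist1h2bk: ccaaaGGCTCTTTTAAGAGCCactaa

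The remaining forms were rarer. One was in Hist1h4b (chr13:23757366-23757381, plus strand) and Hist1h4j, another in Hist1h4i (chr13:22040966-22040981, minus strand) and Hist2h4, and the last in Hist2h2ac alone (chr3:96220418-96220433, minus strand). They differ from the forms above in the stem or the loop, and each keeps paired stems of 6 bases around a loop of 4.
Hist1h4b: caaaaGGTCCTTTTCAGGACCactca
Hist1h4i: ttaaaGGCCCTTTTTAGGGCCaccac
Hist2h2ac: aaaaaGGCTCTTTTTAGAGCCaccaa

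Promoter windows of 300 bases (250 before to 50 after the start, RefSeq, GRCm38.p6) were at hand for 62 of the 67 genes. The octamer ATTTGCAT, a known element of H2b promoters, was found on either strand in 6 of 16 H2b and 7 of 18 H2a windows and in none of the H1, H3 and H4 windows, against 1.735% of all windows. The 10 pairs of windows that overlap are each 1 H2a and 1 H2b gene. A single octamer, or a single element of those below, can therefore be counted for both. CCAAT was found in 53 of 62 windows, against 37.4% of all windows, but in 3 of 12 H4 windows. TATAAA was found in 35 of 62 windows, against 13.6%. The window of Hist1h2bk (chr13:22035571-22035870, plus strand) is printed because it holds all 3 elements, in capitals. Its octamer starts 30 bases before the transcript start, and the other capitals are CCAAT on either strand and TATAAA on the other strand. The window shares 277 bases with that of Hist1h2ah, a gene of the minus strand. Its TATAAA lies on that strand, 198 bases before the Hist1h2bk start, so it need not be an element of Hist1h2bk.
Hist1h2bk: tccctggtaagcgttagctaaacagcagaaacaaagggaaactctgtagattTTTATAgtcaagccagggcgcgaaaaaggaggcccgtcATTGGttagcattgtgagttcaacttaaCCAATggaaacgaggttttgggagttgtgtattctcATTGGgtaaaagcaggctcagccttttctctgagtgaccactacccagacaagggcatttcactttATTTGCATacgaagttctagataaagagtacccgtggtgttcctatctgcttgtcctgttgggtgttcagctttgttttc

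Reads from these genes are hard to tell apart, since the genes are close copies of each other. Of all 31-base words in the transcripts of a gene, a median of 41.5% occurred in no other gene. In 40 of the 67 genes under 50% of words were unique, in 20 under 20%, and in 6 at least 90%. Hist2h2aa2 had no unique word and shared all of them with Hist2h2aa1, and Hist1h2ao shared 93.8% with Hist1h2ap. Counts of such genes are Salmon's division of shared reads, so the sum of a class is firmer than the value of a single gene, and differences between near copies are uncertain.

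Libraries held 26.5 M to 454 M counts on genes (M standing for mega, median 46.7 M, second highest 84.5 M), of which these histone genes took 0.129% to 1.78%. OPC and oligodendrocyte identity followed the labels: the 12 oligodendrocyte markers summed to 397 to 2882 CPM (counts divided by the TMM library size and scaled, with no correction for length) over the day 0 libraries and to 32569 to 76859 over those of day 5. The 10 OPC markers summed to 3411 to 5359 CPM over the day 0 libraries and to 1371 to 2519 over those of day 5. Microglial markers summed to at most 9.25 CPM in any library. Astrocyte markers were not absent: in telencephalon Control they summed to 417 to 1059 CPM at day 0 and 2915 to 16390 at day 5. In brainstem Control they summed to 577 to 809 and 503 to 3184 CPM. The part of such cells in the changes over days was not tested. The wells of 3 lines on 1 day each stood apart before any comparison. K27M line 41 at day 1 held a summed histone level of 2386 CPM in brainstem and 2597 in telencephalon, where the other K27M lines of that day held 6254 to 10939.5. Its cycle genes were low too, with 719 and 796 CPM over 20 G2 and M phase genes, against 2102 to 3703 in the other K27M lines. Brainstem Control line 38 at day 2 held 9283 CPM of histone genes, where lines 41 and 42 held 3996 and 2851. Within that line, the library of replicate 1 had the highest share of the signal recognition particle RNA Rn7s1 of all libraries, 40.6% of its counts, the fewest genes detected, 20157, and counts on histone pseudogenes equal to 3.18% of those on the 67 genes, where no other library passed 1.21%.

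Replication-dependent histone mRNA fell in every region and genotype over 5 days of differentiation. Summed over the 67 genes, brainstem Control libraries held 8510 to 13834 CPM at day 0 (median 11406) and 1663 to 3948 at day 5 (median 2237), and the 2 groups of libraries did not overlap. As the mean of 3 lines, the level went from 11626 ± 1658 (SD) through 7418 ± 2569 at day 1 and 5377 ± 3431 at day 2 to 2526 ± 817 at day 5, a log2 change of −2.24 ± 0.60. Telencephalon Control libraries held 9536 to 15065 CPM at day 0 (median 13101) and 1533 to 2468 at day 5 (median 1814), a log2 change of −2.74 ± 0.26 over the lines. In K27M cells the corresponding changes were −2.46 ± 0.14 in brainstem and −2.28 ± 0.07 in telencephalon. Day 0 and day 5 were thus apart by more than the spread between lines in all 4 cell populations, while the lines of day 1 and day 2 were spread widely. By TPM (a transcript abundance divided by length and scaled to all transcripts) the changes were larger, −3.04 in brainstem Control and −3.58 in telencephalon Control. In a bulk culture, fewer cycling cells and less histone mRNA per cycling cell cannot be told apart.

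**Figure D1:**
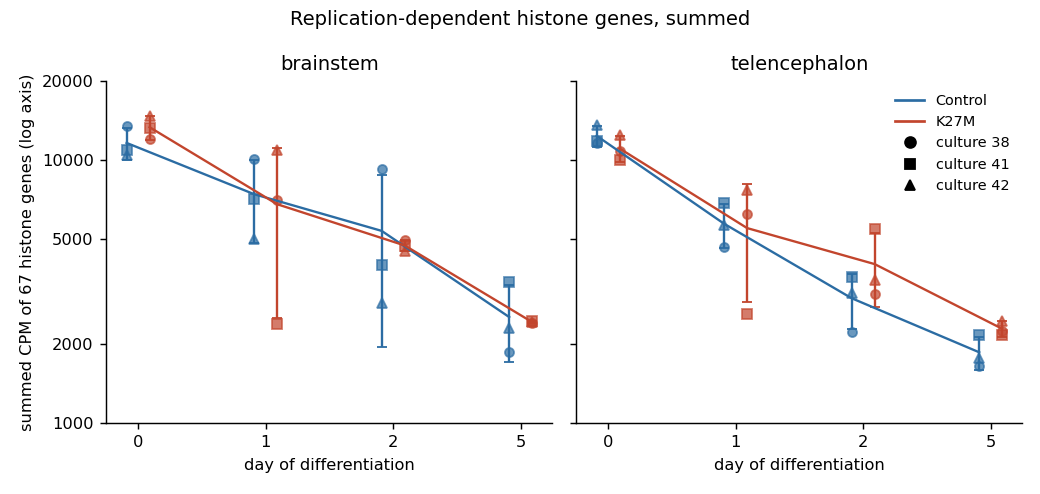
Summed CPM of the 67 histone genes (log axis) against day of differentiation (days equally spaced), by region and genotype. Points are line means, lines join the means of 3 lines and bars are ± 1 SD over lines. All line means lie at 9995 CPM or more at day 0 and at 3435 or less at day 5, and K27M culture 41 at day 1 and brainstem Control culture 38 at day 2 stand apart.

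Nearly every single gene followed the sum. In edgeR's quasi-likelihood test with Benjamini-Hochberg adjustment, 61 of 65 tested genes fell from day 0 to day 5 in brainstem Control and 62 of 65 in telencephalon Control, where 35.1% and 34.1% of all 19769 genes tested were lower. The median log2 change of the 65 genes was −2.43 and −3.21, and that of all genes was 0.07 and 0.09. In K27M cells 62 of 65 fell in brainstem (33.2% of all genes) and 61 of 65 in telencephalon (34.7%), with medians of −2.72 and −2.71. With wells summed per line, where n is 3 lines, 59 and 61 genes still fell in the Control cells and 62 and 60 in the K27M cells, against 28.5%, 27.1%, 25.1% and 27.6% of all genes in that fit. None of the 65 genes was higher at day 5 in any of the 4 comparisons. The number of counts behind a gene differed widely, so the genes with the most reads are described first.

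Histone H4, with H3 the core of the nucleosome, had the gene with the highest level per length, Hist1h4h (chr13:23531050-23531519, plus strand, mean of 550 TPM over all libraries). Hist1h4h held 401 to 824 CPM in brainstem Control at day 0 (median 541) and 103 to 183 at day 5 (median 134), and 418 to 762 (median 613) and 76.1 to 112 (median 92.6) in telencephalon Control. The days did not overlap in either region, and the log2 change was −2.07 (SE 0.21, adjusted p = 3.9e-17) and −2.69 (SE 0.21, adjusted p = 1.34e-23). The next H4 genes by TPM were Hist1h4n (303 TPM) and Hist1h4a (252 TPM), and Hist1h4n changed by −2.83 (SE 0.21) and −3.35 (SE 0.21). All 13 H4 genes fell in all 4 cell populations, and the summed H4 level changed by −2.40 ± 0.53 in brainstem Control and −2.96 ± 0.30 in telencephalon Control.

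H3 genes of this set encode the S phase forms of H3, and K27M is a change in the variant H3.3, made elsewhere. Their leading genes were Hist1h3h (241 TPM), Hist2h3b (222 TPM) and Hist1h3i (213 TPM). Hist1h3h went from 136 to 335 CPM in brainstem Control at day 0 (median 193) to 25.4 to 67.3 at day 5 (median 35.6), a log2 change of −2.48 (SE 0.27). In telencephalon Control it went from 145 to 304 CPM (median 210) to 18.3 to 40.8 (median 27.1), a change of −3.00 (SE 0.28). The days did not overlap for Hist1h3h in either region. The summed H3 level had the largest change of the 5 classes in both regions of Control cells, −2.73 ± 0.76 and −3.43 ± 0.34, with 12 of 12 tested genes lower in each. Of these, Hist2h3c1 had a count in only 16 libraries, so its fold change has no meaning.

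H2a and H2b pair in the nucleosome and their genes often lie head to head. Among H2a genes Hist1h2ap (332 TPM) led, followed by Hist2h2aa2 (240 TPM) and Hist1h2ab (179 TPM). Hist1h2ap held 275 to 483 CPM at day 0 and 26.8 to 137 at day 5 in brainstem Control (medians 438 and 59.2, log2 change −2.53, SE 0.27). In telencephalon Control it held 326 to 548 and 25.1 to 54.3 CPM (medians 416 and 28.3, log2 change −3.72, SE 0.28). Again the days did not overlap. Among H2b genes Hist2h2bb (264 TPM), Hist1h2bk (245 TPM) and Hist1h2bb (200 TPM) led. Hist2h2bb went from a median of 216 CPM (167 to 296) to 27.5 (17.6 to 50.3) in brainstem Control and from 246 (156 to 321) to 13.5 (12.3 to 24.0) in telencephalon Control, log2 changes of −2.78 (SE 0.25) and −3.92 (SE 0.26). Hist1h2bk, whose promoter window is printed above, changed by −2.60 (SE 0.25) and −3.59 (SE 0.26). In brainstem Control 16 of 17 tested H2a and 15 of 17 tested H2b genes fell, and in telencephalon Control 16 of 17 in each.

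H1 is the linker histone, and its genes fell by different amounts. Hist1h1a (124 TPM) behaved as the core histone genes did, from a median of 263 CPM (191 to 298) to 25.9 (16.7 to 63.4) in brainstem Control and from 307 (182 to 342) to 19.6 (13.4 to 35.6) in telencephalon Control, log2 changes of −2.89 (SE 0.28) and −3.81 (SE 0.29). Hist1h1e (107 TPM) fell less, from 511 (427 to 592) to 204 (153 to 364) and from 581 (508 to 721) to 227 (184 to 290) CPM, changes of −1.13 (SE 0.16) and −1.41 (SE 0.17). Hist1h1c (90.5 TPM) also fell less, from 334 (275 to 460) to 168 (125 to 236) and from 421 (307 to 451) to 202 (180 to 236) CPM, changes of −1.05 (SE 0.19) and −0.92 (SE 0.19). Day 0 and day 5 libraries did not overlap for any of these 3 genes in either region. H1 is present once per nucleosome, the core histones as pairs, and the H1 genes took a small share of the summed TPM. In brainstem Control that share was 5.21% ± 0.28 at day 0 and 7.28% ± 0.61 at day 5, and in telencephalon Control it was 5.37% ± 0.22 and 10.2% ± 1.1. The share of H3 went from 20.7% ± 0.41 to 17.3% ± 1.3 and from 20.2% ± 1.2 to 16.2% ± 0.31, and that of H4 was 30.6% ± 2.2 and 29.8% ± 4.0 in brainstem and 30.5% ± 1.8 and 30.4% ± 1.8 in telencephalon. In TPM, H4 went from 4770 ± 260 to 589 ± 224 in brainstem Control, and H1 from 816 ± 91 to 148 ± 72.

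A few genes did not fall with the rest, and they were picked out here after their values were seen. Hist1h2bc, an H2b gene, held 114 to 149 CPM at day 0 and 112 to 145 at day 5 in brainstem Control, with a median of 129 on both days (log2 change −0.06, adjusted p = 0.639). At day 1 its median there was 86.0 CPM. In telencephalon Control it fell by 0.39 on the log2 scale (SE 0.10, adjusted p = 0.000548), from 122 to 188 CPM (median 151) to 91.9 to 130 (median 120). Hist2h2be, another H2b gene, held 3.06 to 4.85 CPM at day 0 and 3.27 to 4.76 at day 5 in brainstem Control and 3.23 to 6.55 and 3.15 to 5.73 in telencephalon Control, and did not pass the test in any of the 4 cell populations. No stem-loop was found in the annotated transcript of either gene. Hist1h1t, known as the H1 gene of the testis, stayed at or under 0.774 CPM in every library. Hist1h2ao did not pass in 3 of the 4, but shares almost all of its words with Hist1h2ap. Of the genes that fell in both regions of Control cells, 5 did so by less than 1.5 on the log2 scale in each, namely Hist1h1c, Hist1h1e, Hist1h2ai, Hist1h4i and Hist3h2a.

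**Figure D2:**
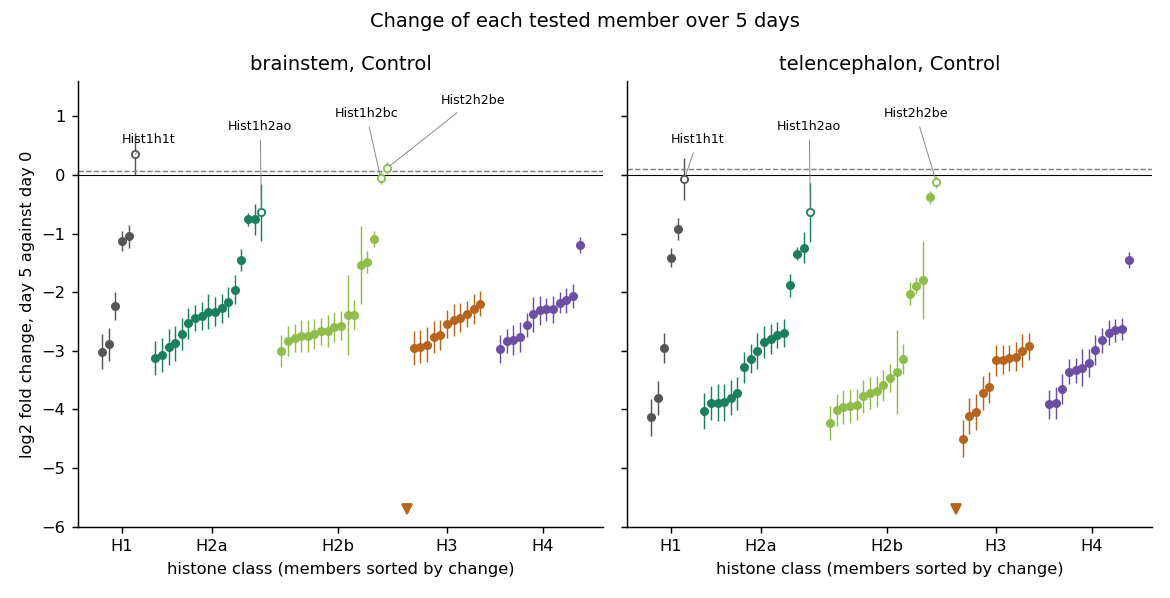
Log2 fold change, day 5 against day 0, of each tested histone gene in Control cells, by class and sorted by size within a class. Filled points passed edgeR's test, open points did not, bars are ± 1 SE, the dashed line is the median of all genes tested, and the triangle is Hist2h3c1, which is off the scale. Medians of the 65 genes are −2.43 in brainstem and −3.21 in telencephalon, and the named genes did not pass.

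The fall was spread over the days. From day 0 to day 1, 45 of 65 genes fell in brainstem Control (20.8% of all genes were lower), 60 in telencephalon Control (29.1%), 59 in brainstem K27M (22.3%) and 60 in telencephalon K27M (25.6%), with median log2 changes of −0.64, −1.20, −1.03 and −1.11. From day 1 to day 2 the counts were 40 (30.7%), 58 (23.1%), 26 (17.5%) and 32 (20.1%), with medians of −0.60, −1.11, −0.58 and −0.57. From day 2 to day 5 they were 57 (30.2%), 53 (29.6%), 58 (27.4%) and 58 (31.3%), with medians of −1.17, −0.96, −1.13 and −1.09. The steps that begin or end at day 1 in K27M cells or at day 2 in brainstem Control contain the lines that stood apart. There were 9 rises over these 12 steps, and 3 of them were in brainstem Control from day 1 to day 2, namely Hist1h2bc (log2 0.40), Hist2h2be (0.45) and Hist1h1t (0.93). Hist2h2be also rose from day 0 to day 1 in brainstem K27M (0.28) and from day 1 to day 2 in telencephalon K27M (0.27), and Hist1h1c rose from day 2 to day 5 in telencephalon Control (0.55). The remaining rises were of Hist1h1t and Hist2h3c1, which had few counts, in telencephalon Control and of Hist1h2ao in telencephalon K27M.

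The histone level moved with the genes of S phase. The S phase list held 30 genes for the copying of DNA, such as Pcna, Mcm2 and Ccne2, and all 30 fell from day 0 to day 5 in all 4 cell populations, with medians of −2.58 in brainstem Control and −3.09 in telencephalon Control. Mcm2, a part of the replicative helicase, fell by 2.83 (SE 0.17) and 3.41 (SE 0.18) on the log2 scale, and Ccne2, a cyclin of S phase entry, fell by 2.98 (SE 0.22) and 3.86 (SE 0.23). All 20 genes of the G2 and M phase list, such as the proliferation marker Mki67, fell as well, with medians of −2.95 and −4.10. The log2 ratio of the summed histone CPM to the summed CPM of the S phase list had group means between 1.67 and 2.33. From day 0 to day 5 this ratio changed by 0.21 ± 0.28 over the lines in brainstem Control, 0.14 ± 0.13 in telencephalon Control, −0.12 ± 0.08 in brainstem K27M and 0.27 ± 0.11 in telencephalon K27M. Its changes were small beside those of the summed level itself, −2.24 to −2.74. Single lines ranged more at days 1 and 2. Culture 41 of K27M at day 1 had 1.12 in brainstem and 1.67 in telencephalon, where the remaining K27M lines of that day had 1.81 to 2.35, so the histone level there was low also relative to S phase genes.

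**Figure D3:**
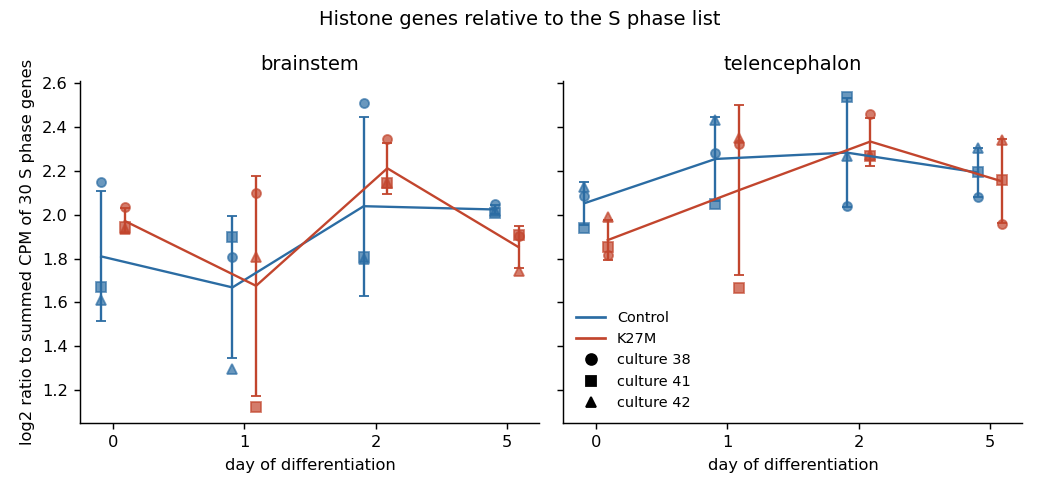
Log2 ratio of the summed CPM of the 67 histone genes to the summed CPM of 30 S phase genes against day (days equally spaced), by region and genotype, with line means as points and the mean ± 1 SD over lines. Group means run from 1.67 to 2.33 and show no fall like that of the summed level.

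The annotated 3′ ends of these genes differ, and the change at day 5 was described against them without a test. The 46 transcripts with a stem-loop ran 3 to 4884 bases past it (median 153). The 21 genes whose model ends at most 60 bases past it had a median log2 change of −2.72 in brainstem Control and −3.72 in telencephalon Control. Medians were −2.54 and −3.15 for the 11 genes with 61 to 500 bases and −2.22 and −2.77 for the 12 with more than 500. Of the genes with no stem-loop in the model, 15 with a model under 550 bases, which may stop before the element, had medians of −2.43 and −3.28, and 6 longer ones had −1.97 and −2.58. These 6 were Hist1h1a, Hist1h1b, Hist1h2bc, Hist1h2bq, Hist1h2br and Hist2h2be. The limit of 550 bases may not suit H1 genes, since in Hist1h1e the stem-loop starts at base 762. Hist1h1a and Hist1h1b (741 and 743 bases) may also stop before it, and changed by −2.89 and −3.81 and by −3.01 and −4.13. Among genes with a stem-loop, those with longer models fell less in the median in both regions, with wide overlap. The group over 500 bases includes Hist2h3c1, whose fold change has no meaning. Uniqueness of the sequence moved too: the medians were −2.39 and −3.05 for genes with under 20% unique words, −2.76 and −3.84 with 20% to 50%, and −2.18 and −2.73 with at least 50%, and its part in the order by end was not tested.

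**Figure D4:**
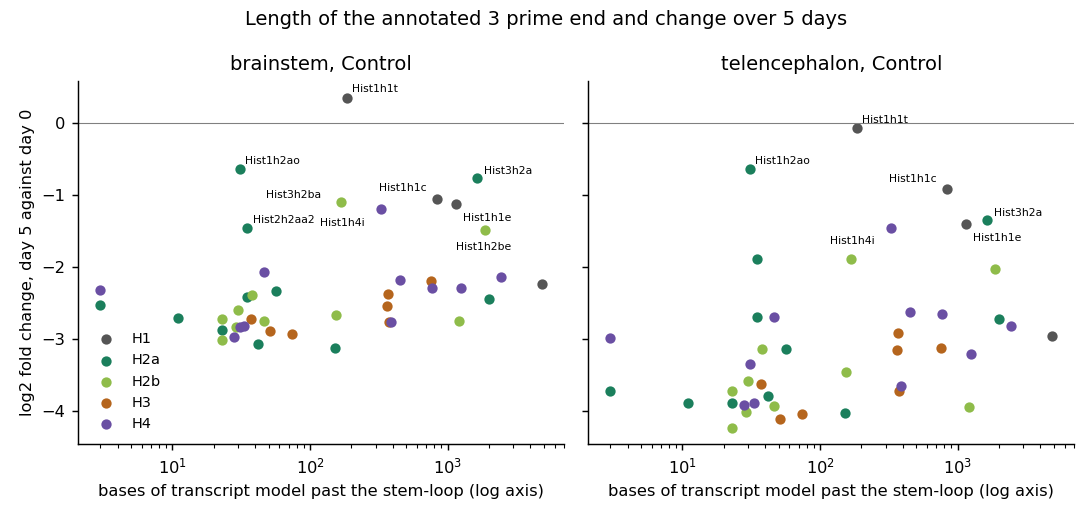
Log2 fold change, day 5 against day 0, of the tested histone genes with an annotated stem-loop in Control cells against the bases of the transcript model past the stem-loop (log axis), coloured by class. Genes above −1.6 are named and Hist2h3c1 is left out. Genes with at most 60 bases have medians of −2.72 and −3.72, and those with over 500 bases, Hist2h3c1 included, −2.22 and −2.77.

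A gene with both kinds of transcript is Hist1h2be (chr13:23583670-23621124), whose annotated span covers other genes of the cluster. Its transcript without a stem-loop, of 2099 bases, took 0.719% of the counts of the gene at day 0 and 36.6% at day 5 in brainstem Control, and 0.681% and 39.7% in telencephalon Control. In CPM it went from 1.31 to 21.8 in brainstem and from 1.33 to 19.9 in telencephalon, while the main transcript with the stem-loop went from 176 to 36.2 and from 199 to 25.1. A minor transcript that also holds the stem-loop went from 4.45 to 6.80 CPM and from 4.91 to 5.54. The transcripts of this gene thus did not move together, and their directions did not divide by the stem-loop. Salmon divided the shared reads between them, and Hist1h2be also shared 10.5% of its words with Hist1h1e. Hist1h2be was chosen after its values were seen. Hist1h2bp has both kinds of transcript too. Its transcript without a stem-loop went from 5.28 to 1.46 CPM in brainstem Control and from 5.91 to 1.06 in telencephalon Control. The one with a stem-loop went from 23.3 to 3.98 and from 26.0 to 2.55, so in Hist1h2bp both fell.

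Genes for the making and handling of histone mRNA and protein moved in part with the histone genes. Of 15 genes for histone transcription and 3′ processing, 10 fell and 3 rose from day 0 to day 5 in brainstem Control (median −0.50), and 10 fell and 4 rose in telencephalon Control (median −0.72). Slbp, which binds the stem-loop, held 52.2 to 76.1 CPM at day 0 and 14.1 to 23.6 at day 5 in brainstem Control and fell by 1.82 (SE 0.15) on the log2 scale, and in telencephalon Control it fell by 2.00 (SE 0.15). Lsm11, of the U7 snRNP that cuts the pre-mRNA, fell by 1.71 (SE 0.10) and 1.66 (SE 0.10), and Eri1, a nuclease of histone mRNA ends, fell by 1.03 (SE 0.07) and 1.11 (SE 0.08). Casp8ap2, a protein of the histone locus body, fell by 0.83 (SE 0.07) and 0.95 (SE 0.07). Npat, the coactivator of histone genes in S phase, moved the other way: it held 51.4 to 68.3 CPM at day 0 and 94.4 to 124 at day 5 in brainstem Control, without overlap, and rose by 0.88 (SE 0.08) there and by 0.67 (SE 0.08) in telencephalon Control. Each of these named changes passed with wells summed per line too.

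Of 20 histone chaperones, 15 fell and 1 rose in brainstem Control (median −0.99) and 17 fell in telencephalon Control (median −1.09). Asf1b, which hands H3 and H4 on, fell by 2.62 (SE 0.19) and 3.72 (SE 0.21), Chaf1a, of the factor that loads them behind the fork, fell by 2.42 (SE 0.17) and 2.92 (SE 0.17), and Nasp, which holds soluble H3 and H4, fell by 1.73 (SE 0.10) and 2.17 (SE 0.10). Of 11 replication-independent histone genes, 8 fell and 2 rose in brainstem Control (median −0.97) and 9 fell and 1 rose in telencephalon Control (median −1.28). H2afz, which makes the variant H2A.Z, fell by 2.15 (SE 0.15) and 2.65 (SE 0.15). Of the H3.3 genes, H3f3b fell by 0.42 (SE 0.06) and 0.62 (SE 0.06), and H3f3a rose by 0.47 (SE 0.09) in brainstem Control, while in telencephalon Control its change was 0.04 (adjusted p = 0.73). H1f0, the H1 of resting cells, fell by 0.18 (SE 0.08, adjusted p = 0.03) and 0.43 (SE 0.08), and with wells summed per line the change in brainstem did not pass (adjusted p = 0.055). Per length, H3f3a stood at 205 ± 45 TPM at day 0 and 184 ± 43 at day 5 in brainstem Control. Its rise on TMM-scaled counts was thus not seen in TPM, and the direction depends on the measure. The 12 H3 genes together stood at 3252 ± 265 and 363 ± 200 TPM there.

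The comparison of K27M with Control asked whether the mutant cells hold more or less replication-dependent histone mRNA. In telencephalon the K27M cells held more at days 2 and 5 by the test on wells. At day 2 Control libraries held 1839 to 3894 CPM summed (median 3012) and K27M libraries 2549 to 5782 (median 3730), so the groups overlapped. Line by line, Control and K27M held 2210 and 3094 (culture 38), 3601 and 5460 (culture 41) and 3126 and 3504 (culture 42), a log2 difference of 0.42 ± 0.23, higher in 3 of 3. At day 5 Control libraries held 1533 to 2468 CPM (median 1814) and K27M libraries 1878 to 2553 (median 2274), with a difference of 0.31 ± 0.27 over the lines, and culture 41 had 2160 and 2159. On wells, 22 of 65 genes were higher in K27M at day 2 and none lower (17.0% of all genes were higher and 15.4% lower), with a median log2 difference of 0.50. At day 5, 13 of 65 were higher and none lower (10.6% and 11.7%), with a median of 0.48. On both days the share of histone genes that were higher was above that of all genes.

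With wells summed per line none of them passed at either day in edgeR, where 2.73% and 1.3% of all genes were higher, and 1 gene had an unadjusted p under 0.05 on each day. The median log2 difference in that fit was 0.50 at day 2 and 0.46 at day 5, close to those on wells, and at n = 3 lines no single gene passed. The 22 genes of day 2 were 1 H1, 6 H2a, 5 H2b, 4 H3 and 6 H4 genes. Hist1h4j and Hist1h3d at day 2, and Hist1h3g and Hist3h2a at day 5, were picked after their values were seen. Hist1h4j went from 9.57 to 34.7 CPM in Control (median 22.6) to 18.3 to 64.8 in K27M (median 37.4), a log2 difference of 0.82 (SE 0.24, adjusted p = 0.00416, and 0.28 with wells summed). Hist1h3d held 16.5 to 34.4 (median 18.0) and 22.1 to 50.5 CPM (median 31.4), a difference of 0.71 (SE 0.21, adjusted p = 0.00417, and 0.295 with wells summed). Both overlapped between genotypes. Of the genes with the highest levels, Hist1h4n passed (0.58, SE 0.19, adjusted p = 0.0138), as did Hist1h2ab (0.65, adjusted p = 0.0432) and Hist1h2bb (0.64, adjusted p = 0.0433), and Hist1h4h did not (0.36, adjusted p = 0.154). At day 5 Hist1h3g had the largest difference of those that passed, from 5.08 to 12.3 CPM in Control (median 6.59) to 10.1 to 17.7 in K27M (median 12.2), or 0.88 (SE 0.29, adjusted p = 0.0163). Hist3h2a held 43.7 to 57.4 CPM in Control (median 53.2) and 62.3 to 77.8 in K27M (median 68.4) at day 5, and here the genotypes did not overlap (0.39, SE 0.12, adjusted p = 0.00788, and 0.326 with wells summed).

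Other genes moved in the same comparison. In telencephalon, 21 of 30 S phase genes and 19 of 20 G2 and M phase genes were higher in K27M at day 2 (medians 0.52 and 0.76), and 13 and 17 at day 5 (medians 0.43 and 0.79). The histone level per S phase gene level differed by 0.05 ± 0.35 at day 2 and −0.04 ± 0.08 at day 5, so no excess of histone mRNA over S phase genes was detectable. H3f3a, the gene that carries the mutant allele, was higher in K27M by 0.83 (SE 0.09) at day 2 and 1.01 (SE 0.09) at day 5, also with wells summed per line (adjusted p = 0.0003 and 1.3e-05), but Control littermates transcribe a single allele of it, so this difference cannot be told apart from the number of active alleles. At day 2, 8 of 10 astrocyte markers and 3 of 12 oligodendrocyte markers were lower in K27M, and 6 of 10 OPC markers and 5 of 10 neuron markers were higher. At day 5, 7 of 10 neuron markers were higher (median 1.23) and 3 of 10 astrocyte markers lower. Astrocyte markers summed to 789 to 3416 CPM in Control and 337 to 1767 in K27M at day 2, and to 2915 to 16390 and 908 to 6268 at day 5, and no marker was without counts. The part of cell composition in the histone difference was not tested.

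At days 0 and 1 in telencephalon no histone gene passed. Summed levels at day 0 were 9536 to 15065 CPM in Control and 8856 to 12993 in K27M (log2 difference −0.16 ± 0.07 over the lines, lower in 3 of 3), and edgeR called 0 of 65, with 1 gene under an unadjusted p of 0.05 and 0 called by DESeq2. All genes were called in 5.97% higher and 9.75% lower, and the median of the 65 was −0.15. At day 1 edgeR called 0 of 65 (12.9% and 15.9% of all genes), with 1 under an unadjusted p of 0.05, and DESeq2 called 1. The summed difference there was −0.18 ± 1.06, and the level of culture 41, 2597 CPM in K27M and 6850 in Control, set this spread.

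In brainstem few histone genes differed between K27M and Control. Summed levels at day 0 were 8510 to 13834 CPM in Control and 11235 to 15876 in K27M, a log2 difference of 0.20 ± 0.34 over the lines. EdgeR called 0 of 65 genes there, with 3 under an unadjusted p of 0.05 and 0 called by DESeq2 (7.69% of all genes were higher and 3.64% lower). The median difference was 0.21, and 0.007 for all genes. Of the 65 differences 61 were positive, whereas in telencephalon at day 0, 60 were negative. Many of these genes share reads, so their signs are not independent and such counts are no test. At day 1, 3 genes passed, each higher (16.9% of all genes were higher), namely Hist1h2bc (0.28, adjusted p = 0.0416), Hist2h2be (0.37, adjusted p = 0.00456) and Hist1h1t (1.56, adjusted p = 0.00104). The first 2 are the H2b genes without a stem-loop that did not fall in brainstem Control over 5 days. At day 2, 1 was higher, Hist1h1t, and 1 lower, Hist1h4k (−1.12, adjusted p = 0.00385), with 13.6% and 12.5% of all genes. Hist1h4k held 634 CPM in replicate 1 of Control culture 38, the library with the most Rn7s1, and 78.9 and 84.4 in its sister wells. Without that library 1 gene was higher and 0 were lower (13.3% and 9.86% of all genes). At day 5, 4 were lower and none higher (19.8% of all genes were higher and 18.8% lower), namely Hist1h2ai, Hist1h2ao, Hist2h2aa2 and Hist3h2ba. Without culture 41 the direction turned, with 8 higher and 1 lower (12.4% and 14.1% of all genes) and 1 call shared. With wells summed per line, none passed at days 0, 1 and 2, nor at days 0 and 1 in telencephalon. The summed level of that day was 1663 to 3948 CPM in Control and 1843 to 3225 in K27M, and its log2 difference was −0.02 ± 0.44.

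Hist1h2ai, an H2a gene, was the one histone gene that passed in brainstem at day 5 also with wells summed per line, where 4.2% of all genes were lower. It held 21.5 to 72.1 CPM in Control (median 47.0) and 13.9 to 24.8 in K27M (median 16.9), with line means of 27.3, 65.2 and 46.3 in Control and 18.2, 18.9 and 16.4 in K27M. Every K27M line was thus below every Control line, and the difference was −1.43 (SE 0.26, adjusted p = 3.35e-06, and 0.0449 with wells summed). Only 8.0% of its words were unique and 84.9% were shared with Hist1h2ah, so the division of reads between near copies can set this value.

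**Figure D5:**
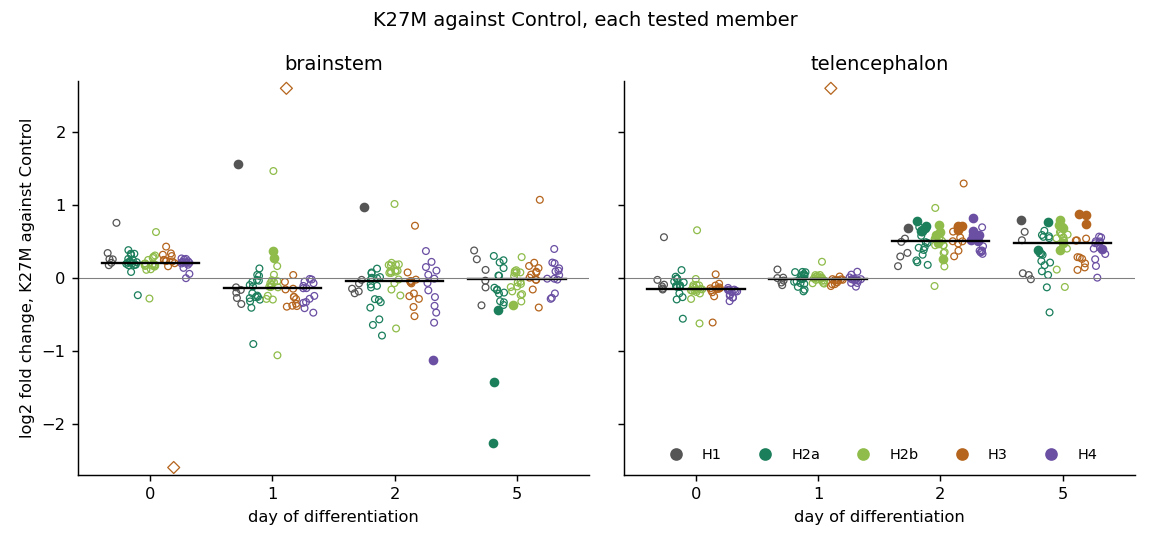
Log2 fold change of each tested histone gene, K27M against Control, by day (equally spaced), region and class. Filled points passed edgeR's test on wells, open points did not, open diamonds lie beyond 2.6 on either side and are drawn at the edge, and black bars are medians of the 65 genes. The median is 0.50 at day 2 and 0.48 at day 5 in telencephalon and lies between −0.14 and 0.21 in brainstem.

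These counts come from 1 fit over all libraries, and some of them rest on the lines that stood apart. A repeat without those lines was chosen after the data were seen. The 9 libraries of K27M culture 41 at day 1 in both regions and of brainstem Control culture 38 at day 2 were left out. Since they were noticed by their histone level among other values, the repeat shows how much rests on them and is not an independent test. Without them, 6 genes were higher in K27M at day 1 in brainstem (9.13% of all genes were) and 24 in telencephalon (11.7%), 40 in brainstem (15.1%) and 47 in telencephalon (17.4%) at day 2, and 39 in telencephalon at day 5 (11.7%), with 0 lower in each of these. In brainstem at day 5, 1 was higher and 5 were lower (21.1% and 19.4%). The median at day 2 in brainstem went from −0.04 to 0.48 and at day 1 in telencephalon from −0.02 to 0.43. Without culture 42, on the other hand, 58 genes were lower and 2 higher in K27M at day 1 in brainstem (15.3% and 21.3% of all genes). The direction of the K27M difference at day 1 in both regions and at day 2 in brainstem thus depended on which lines entered. None of the libraries left out belongs to telencephalon at day 2 or day 5. Its medians there, 0.48 to 0.50 in both versions, were therefore bound to stay close. Its counts still rose, from 22 to 47 at day 2 and from 13 to 39 at day 5. All libraries share 1 estimate of the spread, and the part of that in this rise was not tested.

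Between regions, Control cells held similar levels at day 0, and at days 2 and 5 more histone genes were higher in brainstem than lower by the test on wells. Control libraries of day 0 held 8510 to 13834 CPM in brainstem and 9536 to 15065 in telencephalon (log2 difference −0.10 ± 0.30), and 2 genes were lower in brainstem and none higher (15.8% of all genes were higher and 20.4% lower). These were Hist2h2be (−0.35, adjusted p = 0.00324) and Hist3h2a (−0.51, adjusted p = 0.000141). At day 1, 17 were higher and 3 lower (25.1% and 29.0%), at day 2, 52 were higher and none lower (18.8% and 19.4%), and at day 5, 43 were higher and none lower (21.6% and 21.5%), with medians of 0.42, 0.87 and 0.69. The share higher at day 1 was close to that of all genes, and line means of that day were 10118, 7134 and 5003 CPM in brainstem and 4672, 6850 and 5649 in telencephalon, so culture 38 alone was far higher in brainstem. With wells summed per line, 0 passed at day 0, 1 was lower and 0 higher at day 1, 2 were higher at day 2 (4.79% of all genes) and 0 at day 5 (5.23%), and 33 and 10 genes were under an unadjusted p of 0.05 at days 2 and 5 in edgeR. Line means of the summed level at day 2 were 9283, 3996 and 2851 CPM in brainstem and 2210, 3601 and 3126 in telencephalon, and the log2 difference was 0.70 ± 1.20, with 2.07 in culture 38, 0.15 in culture 41 and −0.13 in culture 42. Without culture 38, 0 genes were higher at day 2 (median 0.10), and without the lines that stood apart 15 were higher and 1 lower (median 0.29). At day 5 the brainstem lines held 1852, 3435 and 2291 CPM and the telencephalon lines 1640, 2160 and 1765, higher in 3 of 3 cultures. With passage as a covariate, 8 genes were higher at day 5 (12.6% of all genes) and 0 at day 1 (20.9%), and without culture 38, 38 were higher at day 5 (21.0%). Region and the batch given in the labels cannot be told apart, since no batch held both regions, and passage differed between lines.

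The genes with the highest levels show the same picture. At day 2 Hist1h4h held 138 to 1139 CPM in brainstem Control (median 212) and 113 to 238 in telencephalon Control (median 189), a log2 difference of 0.88 (SE 0.20, adjusted p = 0.0002, and 0.153 with wells summed). Most of that range came from culture 38, with a mean of 712 CPM, and the medians differed little. At day 5 Hist1h2ap held 26.8 to 137 CPM (median 59.2) and 25.1 to 54.3 (median 28.3), a difference of 1.14 (SE 0.26, adjusted p = 0.000139, and 0.133 with wells summed). Hist1h4k and Hist2h2ab were the genes higher in brainstem at day 2 with wells summed as well. Hist1h4k, an H4 gene with 13.8% unique words, held 16.1 to 634 CPM in brainstem Control (median 26.8), with line means of 266, 26.6 and 20.7, and 9.87 to 23.5 in telencephalon Control (median 17.2). Hist2h2ab, an H2a gene with 70.8% unique words, held 2.52 to 39.8 CPM (median 3.40), with line means of 21.0, 3.40 and 2.86, and 1.63 to 3.90 in telencephalon Control (median 2.74). Without culture 38 their differences were 0.35 and 0.07 on the log2 scale and did not pass, and the highest values were those of replicate 1 of that line, the library with the most Rn7s1.

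By the test on wells, S phase genes were higher in brainstem Control too at days 1, 2 and 5, and G2 and M phase genes at days 2 and 5. All 30 S phase genes passed at days 1 and 2 and 26 at day 5 (medians 0.98, 1.15 and 0.72). Of the 20 G2 and M phase genes, 4, 20 and 20 passed (medians 0.39, 1.17 and 1.12). Among all genes, 25.1%, 18.8% and 21.6% were higher on these days. The share of G2 and M phase genes at day 1 was thus not above that of all genes. Day 2 includes the brainstem Control line that stood apart. The histone level per S phase gene level was not higher in brainstem, with differences of −0.59 ± 0.50 at day 1, −0.24 ± 0.63 at day 2 and −0.17 ± 0.13 at day 5. Oligodendrocyte markers at day 2 summed to 14926 to 24617 CPM in brainstem Control and 21641 to 33708 in telencephalon Control, and 8 of 10 astrocyte markers were lower in brainstem at day 5. The part of these cell populations in the histone difference was not tested.

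Whether the K27M difference itself differed between regions was tested as brainstem minus telencephalon. At day 0, 0 genes passed in edgeR (5.41% of all genes were higher and 1.84% lower), with 3 under an unadjusted p of 0.05 and 0 called by DESeq2. At day 1, 1 gene passed, Hist1h1t (1.45, adjusted p = 0.0155), with 20.5% and 15.3% of all genes. At day 2, 7 genes passed, all with a lower K27M difference in brainstem (7.31% and 6.77%, median −0.57), among them Hist1h4k (−1.81, adjusted p = 0.00105) and Hist2h2be (−0.40). At day 5, 5 passed, likewise lower (16.3% and 13.3%, median −0.51), namely Hist1h2ai (−0.96), Hist1h2ao (−2.14), Hist1h2ap (−0.91), Hist2h4 (−0.79) and Hist3h2ba (−0.76, adjusted p = 0.00188). With wells summed per line none passed on any day, with 0, 1, 1 and 0 genes under an unadjusted p of 0.05 at days 0, 1, 2 and 5. Without the lines that stood apart, 0 genes passed at day 2 and 23 at day 5, all lower in brainstem (14.1% of all genes were). No library of day 5 was among those left out, and why its count rose was not tested. Without only replicate 1 of brainstem Control culture 38 at day 2, 0 passed at day 2 as well (6.94% and 4.51% of all genes).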

How the data were processed

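RNA was read by TruSeq Stranded Total RNA sequencing in 142 libraries of OPC cultures in 16 groups of region, genotype and day. The authors trimmed and quantified the reads with Salmon 1.10.1 on mm10 transcripts (GENCODE M25) with corrections for sequence and GC bias, and deposited estimated counts and TPM per transcript. Here estimated counts were summed per gene and rounded. Histone pseudogenes were not members. The members and gene lists were chosen with earlier results of these data known.

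The main test was edgeR 4.0.16 (R 4.3.3), a quasi-likelihood fit over all 142 libraries with TMM scaling, filterByExpr over the 16 groups (19769 genes), a term for each group and culture within region as a block, and Benjamini-Hochberg adjustment over all genes tested at a threshold of 0.05. CPM were computed on TMM library sizes from the deposited counts and serve comparisons between libraries, and TPM as deposited serve comparisons between genes and classes. Summed levels were averaged over wells and then given as mean ± SD of 3 lines, without a test. Genes were named by rule (the 3 with the highest mean TPM per class, those passing on wells and lines, and 16 list genes). Other genes given with values were chosen after their values were seen, also where this is not said beside them.

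Libraries held 26.5 M to 454 M counts on genes. On counts simulated from these libraries (19769 genes) the step recovered 79% of genes changed by 1 and 49% of those changed by 0.5 on the log2 scale, with 9 false calls. The simulated wells were independent and held no differences between lines. These rates therefore do not describe the test on real wells, which are nested in lines. No pair of wells of a line and day was identical (140 pairs, lowest chi-square per gene 3.82). Control and K27M lines of 1 culture number were assayed together per the methods, though often at different passages. Deviations of same-numbered lines correlated with a median of 0.225 (24 pairs) against −0.124 for other numbers (48 pairs), which is why culture is a block. The deviations were taken from the mean of the lines of a group. The medians therefore depend on each other, and part of the gap is built in. Alternatives included DESeq2 1.42.0, other scalings and filters, effective-length offsets, passage, summed wells and leaving out cultures or libraries. Promoters, transcripts and coordinates are of GRCm38.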

Additional observations from a re-analysis of the deposited data

Results flagged for a closer look

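Class sums were checked for libraries far from the rest of their group, and 6 of 96 groups held one, where chance flags about 1 in 20. The values are summed CPM of a class. In brainstem Control at day 2, replicate 1 of culture 38 had 2366 for H1 genes, with the nearest library at 1270, and 4082 for H4 genes, with the nearest at 2318. The same library had 829 CPM for H2b genes, under the 1448 and 1444 of its sister wells, so its classes moved apart, and its Rn7s1 share was 40.6%. In brainstem K27M, replicate 1 of culture 38 had 1654 for H4 at day 2 (nearest 1323) and 930 at day 5 (nearest 651). In telencephalon Control at day 5, replicate 1 of culture 41 had 484 for H2b (nearest 397) and 367 for H3 (nearest 269).

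The K27M difference differed between regions by the test of the difference itself for 1 histone gene at day 1, 7 at day 2 and 5 at day 5, and with wells summed per line for none, as given above.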

How the results depend on the processing

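All 4 counts of genes that fell from day 0 to day 5 stayed within 58 to 64 under every alternative that was run. The other counts moved. With wells summed per line, the counts that passed were 0 for K27M in brainstem at days 1 and 2 and telencephalon at days 2 and 5, 1 in brainstem at day 5, 0, 1, 2 and 0 for region at days 0, 1, 2 and 5, and 0 for the difference between regions at days 1, 2 and 5. Without the replicate block of cultures they were 6, 2, 11 and 4 for K27M in brainstem at days 2 and 5 and telencephalon at days 2 and 5, and 3 for the difference at day 5. With a replicate block of well numbers within culture they were 14 for K27M in telencephalon at day 2 and 1 and 3 for the difference at days 2 and 5. Well numbers were only a label (same-number median correlation 0.0068, other numbers 0.0001), and the block changed no other call by more than 1.5 times. Median-ratio scaling gave 14 (telencephalon day 2) and 2 (difference, day 2). No filter gave 1, 2, 7 and 4 for K27M (brainstem days 2 and 5, telencephalon days 2 and 5) and 1 and 2 for the difference (days 2 and 5). Length offsets gave 2 (K27M brainstem day 5) and 2, 1 and 2 (difference, days 1, 2 and 5). Passage gave 2 (K27M brainstem day 5), 1, 1, 34 and 8 (region, days 0, 1, 2 and 5) and 3 and 1 (difference, days 2 and 5). DESeq2 gave 1 in telencephalon at day 1, and with a fold threshold of 1.1 it gave 1, 2, 1, 1 and 0 for K27M (brainstem days 2 and 5, telencephalon days 1, 2 and 5), 1 and 7 for region (days 0 and 1) and 0, 1 and 2 for the difference (days 1, 2 and 5). Without the deepest library the difference at day 5 was 8. Leaving out a culture gave 0 to 2, 3 to 60, 3 to 10 and 2 to 9 for K27M in brainstem (days 0, 1, 2 and 5), where day 5 turned to 8 higher and 1 lower without culture 41, 0 to 10, 2 to 21 and 1 to 37 in telencephalon (days 1, 2 and 5), 0 to 2, 4 to 48 and 0 to 58 for region (days 0, 1 and 2) and 0 to 2, 1 to 25 and 0 to 4 for the difference (days 1, 2 and 5).

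Without replicate 1 of brainstem Control culture 38 at day 2 (chosen after the data were seen), K27M gave 1 in brainstem and 25 in telencephalon at day 2 and the difference 1 at day 0 and 0 at day 2. Without the 3 lines that stood apart (likewise), K27M gave 1, 6 and 40 in brainstem at days 0, 1 and 2 and 1, 24, 47 and 39 in telencephalon at days 0, 1, 2 and 5, region gave 46 and 16 at days 1 and 2, and the difference gave 1, 0, 0 and 23. Several of these comparisons lost no library themselves, but all libraries share 1 fit. The summed change from day 0 to day 5 was −3.04, −2.80, −3.58 and −3.05 by TPM (brainstem Control and K27M, telencephalon Control and K27M) and −2.63, −3.14 and −2.65 with total counts as library sizes (all but brainstem Control). The K27M difference in telencephalon at day 0 was −0.052 by TPM and −0.28 by library medians. The cause of these changes was not tested. With summed wells and with left-out lines n was also smaller.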
